A study of Rattus norvegicus with 24 samples.

Results

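The 6 miRNAs described here are the 2 arms of each of 3 hairpins that mark the cells of the vessel wall: rno-miR-126a-3p and rno-miR-126a-5p, rno-miR-143-3p and rno-miR-143-5p, and rno-miR-145-5p and rno-miR-145-3p, written below without the rat prefix. They were taken by name from the 1098 miRNAs of the count table, and all 6 were counted in all 24 libraries. The libraries hold small RNA from the paraventricular nucleus of the hypothalamus (PVN) and the central nucleus of the amygdala (CEA) of male Sprague–Dawley rats, bought at 7 weeks of age. The NC rats were the normal control and had no hepatectomy, the HT rats had part of the left liver lobe removed, the HT + EA rats also received electroacupuncture at Zusanli (ST36) and Sanyinjiao (SP6) before and after the operation, and the HT + SEA rats (sham EA) had needles without current. All groups were restrained, and brain tissue was collected 24 h after their last session. Each nucleus and treatment has 3 libraries. The study's methods describe the use of several animals for the brain tissue and do not tie a library to its rats. The labels give brain as the tissue and name the nucleus only in the sample titles, and no miRNA is a settled marker that tells the PVN from the CEA, so the dissection could not be checked against a defining miRNA. The sources used here do not say whether vessels were flushed of blood.

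miR-126 is carried in an intron of Egfl7 and is made almost wholly by endothelial cells, where its 3p arm represses Spred1 and Pik3r2, which hold back signalling downstream of VEGF. miR-143 and miR-145 are made from a shared transcript, the long non-coding RNA Carmn, in vascular smooth muscle cells and pericytes, together called mural cells, and they keep smooth muscle in its contractile state, in part through Klf4. In bulk brain tissue the first is therefore read as a marker of endothelium and the others as markers of the muscle and pericyte coat of the vessels. This reading was not checked here against a count of cells. Fewer cells of a type and less RNA per cell cannot be told apart in such libraries.

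All 6 matched a mature miRNA in RefSeq (rat assembly GRCr8). The miR-126a arms lie on the plus strand within Egfl7, and their sequences are printed because an antisense neighbour is read from the same bases. Capitals mark the seed, bases 2 to 8, which pairs with target mRNAs.
miR-126a-3p (chr3:29813219-29813240, plus strand): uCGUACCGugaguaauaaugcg
miR-126a-5p (chr3:29813182-29813202, plus strand): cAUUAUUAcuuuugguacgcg
miR-126b (chr3:29813177-29813198, minus strand): uACCAAAAguaauaaugugcug
The minus-strand miR-126b overlaps miR-126a-5p over 17 bases and had 34 to 133 counts per library, and miR-126a-5p was 31.5 to 60.5 times as high in the same library.

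The miR-143 and miR-145 hairpins lie on the minus strand of chromosome 18 within Carmn, with 1278 bases between them. In GRCr8, miR-143-3p spans chr18:57371373-57371394, miR-143-5p chr18:57371408-57371428, miR-145-5p chr18:57370033-57370055 and miR-145-3p chr18:57369997-57370017. Their seeds are GAGAUGA for miR-143-3p, GUGCAGU for miR-143-5p, UCCAGUU for miR-145-5p and GAUUCCU for miR-145-3p. The 6 seeds all differ, and 0 other miRNAs in the table with a RefSeq sequence share any of them. The counts of the 6 were not identical to those of any other row.

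The 24 libraries held 6584345 to 14828269 counts in the PVN and 9463321 to 14913564 in the CEA, and 3 counts, the smallest number taken to show a miRNA, equal 0.201 to 0.456 CPM (counts divided by the library total and scaled to a common size). Levels below are TMM-scaled CPM, for which edgeR adjusts the total for the composition of the library. CEA HT replicate 1 stood apart, with a TMM factor of 0.802 against 0.967 to 1.09 in the others. It and PVN HT replicate 3, which had the highest factor, had the lowest median correlation of log2 levels with the other libraries of their nucleus, 0.987 each against 0.990 to 0.996. Many of the results that rest on either library are given with and without it. The 4 neuronal miRNAs listed (miR-124-3p, miR-9a-5p, miR-128-3p and miR-138-5p) summed to 98487 to 118821 CPM in the PVN and 137994 to 175053 CPM in the CEA. The 4 red cell miRNAs listed (miR-451-5p, miR-144-3p, miR-144-5p and miR-486) summed to 223 to 344 CPM and 118 to 343 CPM, below the level of miR-126a-3p alone in every library.

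The 3p arms of miR-126a and miR-143 were among the abundant miRNAs of both nuclei and the other 4 arms were not. miR-126a-3p, the guide strand of its hairpin, ranked 12th of 898 miRNAs with a mean of 21883 CPM over the 24 libraries, and miR-143-3p ranked 19th with 11485 CPM. miR-145-5p, the guide strand of its hairpin, ranked 157th with 319 CPM and miR-126a-5p 162nd with 306 CPM. miR-145-3p ranked 274th with 36.1 CPM and miR-143-5p 282nd with 31.6 CPM. The 6 miRNAs together took 3.09% of all counts in the PVN and 3.70% in the CEA, averaged over 12 libraries each. The lowest count of any of them was 183, for miR-145-3p in PVN NC replicate 1, so none was near the floor of 3 counts.

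The first question was whether the PVN and the CEA differ in these miRNAs. All 6 had lower means in the PVN, with fitted levels 0.743 to 0.873 times those of the CEA, and 5 of the 6 were called in edgeR (quasi-likelihood test over 24 libraries, Benjamini-Hochberg adjusted p under 0.05 over 898 miRNAs). Differences between the nuclei were common: 47.4% of all miRNAs tested were called and 24.3% were called lower in the PVN. The median log2 difference of the 6 miRNAs, PVN minus CEA, was -0.32, and that of all miRNAs was -0.01, with quartiles of -0.50 and 0.56. The differences of all 6, from -0.43 to -0.20, thus lay between the lower quartile and the median of all miRNAs.

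**Figure D1:**
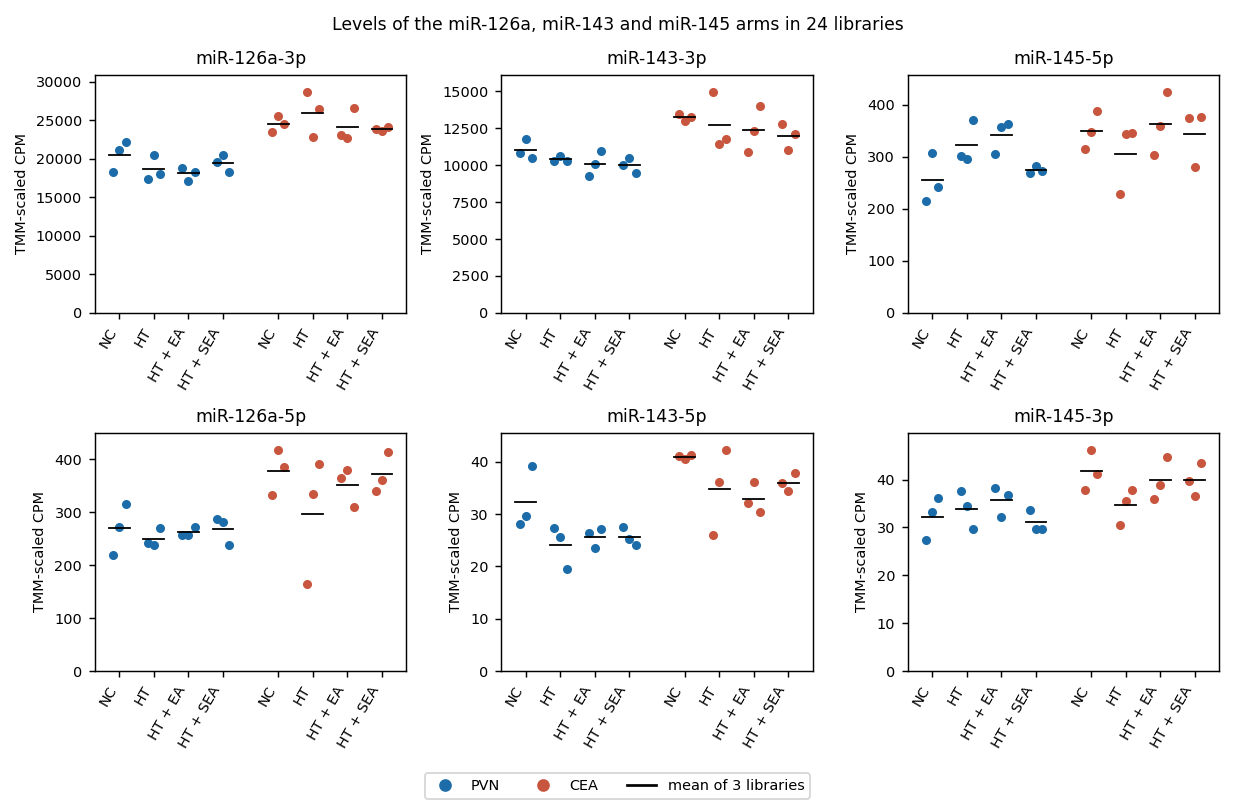
TMM-scaled CPM of each of the 6 miRNAs (vertical axes from 0) in the 3 libraries of each treatment, PVN in blue and CEA in red, with a black bar at each mean. The miR-126a-3p points of the PVN, 17104 to 22178, all lie below those of the CEA, 22649 to 28615, while the other 5 miRNAs overlap between the nuclei.

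miR-126a-3p separated the nuclei without overlap. In the PVN it lay from 17104 to 22178 CPM with a median of 18586 CPM (mean 19158 ± 1592, SD, n = 12), and in the CEA from 22649 to 28615 CPM with a median of 23985 CPM (mean 24608 ± 1834, SD, n = 12). The highest PVN library, NC replicate 3, was just under the lowest CEA library, HT + EA replicate 2. The log2 difference was -0.36 (SE 0.0575), a PVN level of 0.778 times that of the CEA with a 95% interval of 0.717 to 0.844, at an adjusted p of 2.75e-06 in edgeR. Groups that did not overlap, with the PVN lower, were found for 7.24% of all miRNAs.

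Its partner miR-126a-5p, which is less abundant and has targets of its own, lay from 219.7 to 315.9 CPM in the PVN with a median of 263.1 CPM and from 164.6 to 416.5 CPM in the CEA with a median of 362.5 CPM. The means were 262 ± 26.3 and 349 ± 66.8 CPM (SD, n = 12 each). The CEA libraries other than HT replicate 1, which gave the 164.6, were all above the PVN median. The log2 difference was -0.41 (SE 0.0967, edgeR adjusted p = 0.000748), and -0.45 without CEA HT replicate 1.

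miR-143-3p, the main mural product, lay from 9267 to 11804 CPM in the PVN with a median of 10389 CPM and from 10925 to 14947 CPM in the CEA with a median of 12533 CPM. The means were 10381 ± 669 and 12588 ± 1225 CPM (SD, n = 12 each), and the groups overlapped only between 10925 and 11804 CPM. The log2 difference was -0.28 (SE 0.0600, edgeR adjusted p = 0.000220), and -0.22 without CEA HT replicate 1, the library with the highest TMM-scaled value.

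miR-143-5p, the lesser arm of that hairpin, lay from 19.5 to 39.2 CPM in the PVN with a median of 26.8 CPM and from 26.0 to 42.2 CPM in the CEA with a median of 36.1 CPM. Its difference was -0.43 on the log2 scale (SE 0.0861, edgeR adjusted p = 8.77e-05), the furthest from 0 among the 6.

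The miR-145 arms had the differences closest to 0. miR-145-5p lay from 214 to 371 CPM in the PVN with a median of 298 CPM and from 227 to 424 CPM in the CEA with a median of 346 CPM, and the groups overlapped over most of their range. Its log2 difference was -0.20 (SE 0.0838) with an edgeR adjusted p of 0.0536, which missed the threshold, and it was -0.21 with an adjusted p of 0.0191 without CEA HT replicate 1 and -0.20 with an adjusted p of 0.0470 without PVN HT replicate 3. miR-145-3p lay from 27.4 to 38.3 CPM in the PVN with a median of 33.4 CPM and from 30.4 to 46.1 CPM in the CEA with a median of 38.4 CPM. Its log2 difference was -0.23 (SE 0.0779, edgeR adjusted p = 0.0149), and its adjusted p was 0.116 when libraries were scaled by their totals alone and 0.0508 without PVN HT replicate 3.

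The difference between the nuclei was then read within each treatment, 3 libraries against 3, from the same edgeR fit. miR-126a-3p was lower in the PVN without overlap in all 4 treatments, by a log2 difference of -0.26 in NC, -0.48 in HT, -0.41 in HT + EA and -0.30 in HT + SEA. It was called in HT (adjusted p = 0.00162) and in HT + EA (adjusted p = 0.00711), and its adjusted p was 0.0993 in NC and 0.0601 in HT + SEA. Within a treatment, groups that did not overlap with the PVN lower made up 17.6 to 20.7% of all miRNAs, and 23.5 to 29.1% of all miRNAs were called.

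Of the mural miRNAs, miR-143-3p was lower in the PVN by -0.26 to -0.30 on the log2 scale in each of the 4 treatments and was called in none. miR-143-5p was called lower in HT (-0.53, adjusted p = 0.0205) and in HT + SEA (-0.49, adjusted p = 0.0338). It was not called in NC (-0.34, adjusted p = 0.144 in edgeR) or in HT + EA (-0.36, adjusted p = 0.143). miR-145-3p was called in none of the 4, at -0.37 in NC, -0.03 in HT, -0.15 in HT + EA and -0.36 in HT + SEA. miR-145-5p was called lower in the PVN in NC (-0.46, SE 0.168, adjusted p = 0.0374), while in HT its difference was 0.08 (SE 0.168), in HT + EA -0.08 and in HT + SEA -0.32. Without CEA HT replicate 1 the miR-145-5p difference in HT was -0.07 (SE 0.163). In the same setting miR-126a-5p moved in HT from -0.25 (adjusted p = 0.402) to -0.52 (adjusted p = 0.00934), and miR-143-3p moved from -0.29 to -0.14. Without PVN HT replicate 3, miR-143-5p was no longer called in HT (-0.38, adjusted p = 0.141 in edgeR), and the miR-145-5p difference in HT was -0.02.

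**Figure D2:**
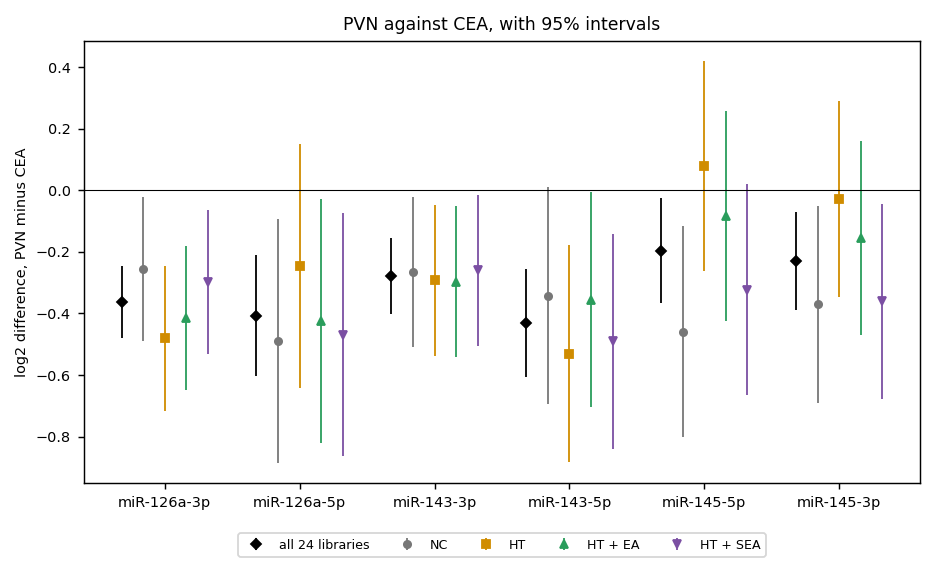
The log2 difference between the nuclei, PVN minus CEA, of each of the 6 miRNAs over all 24 libraries (black diamonds) and within each treatment, with 95% intervals as vertical lines. All black diamonds lie below 0, from -0.43 for miR-143-5p to -0.20 for miR-145-5p, and the miR-145-5p value in HT, 0.08, lies above it.

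Other miRNA lists moved between the nuclei as well, and their part in the differences above was not tested. Of 13 further miRNAs often linked to vessels, which other cells also make, 10 were called lower in the PVN and 1 (miR-155-5p, also an immune miRNA) higher. The largest of these was miR-27b-3p, which lowers angiogenic inhibitors in endothelium, at 6751 CPM in the PVN and 12695 CPM in the CEA on average. The median log2 difference of the 13 was -0.54, further from 0 than the -0.32 of the 6 endothelial and mural miRNAs, and the median over all miRNAs was -0.01. The 4 neuronal miRNAs and the 3 oligodendrocyte miRNAs were all called lower in the PVN, and of 9 choroid plexus and epithelial miRNAs 7 were called higher and 1 lower. The summed level of the last list was 2852 to 4430 CPM in the PVN and 624 to 1950 CPM in the CEA, and that of the oligodendrocyte list 1773 to 3123 and 3944 to 8188 CPM. In the choroid plexus and epithelial sums, miR-34c-5p averaged 2761 CPM in the PVN and 679 CPM in the CEA, and miR-204-5p 622 and 513 CPM. Of 6 fibroblast and meningeal miRNAs tested, 2 were called higher and 2 lower, with sums of 4683 to 6407 CPM in the PVN and 7783 to 14010 CPM in the CEA. Those sums were mostly miR-21-5p, a broadly made miRNA, at 5422 and 10050 CPM on average, and the median log2 difference of the 6 was 0.04. Of 5 myeloid miRNAs 2 were called lower (1299 to 1588 and 1272 to 1720 CPM), of 4 red cell miRNAs 2 were called higher, and of 4 striated muscle miRNAs none was called (19.9 to 111.6 and 22.4 to 54.9 CPM).

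The second question was whether hepatectomy, EA or sham EA changed these miRNAs within a nucleus. None of the 6 was called in any of 8 comparisons (HT against NC, HT + EA against HT, HT + SEA against HT and HT + EA against HT + SEA in each nucleus): of 48 tests in edgeR, 0 passed the adjusted threshold, the lowest adjusted p was 0.213, and 2 had an unadjusted p under 0.05, the threshold used in the study. For HT against NC in the PVN the number at an unadjusted p under 0.05 was 0 when only the 6 libraries compared were fitted and 0 to 3 with each library left out in turn. DESeq2 also called 0 of the 6 at the adjusted threshold, where it called 20 of 762 miRNAs (2.62%) for HT against NC and 18 (2.36%) for HT + EA against HT in the PVN. Calls in edgeR were few among all miRNAs, with 0.262% called in the PVN for HT against NC, 0.394% for HT + EA against HT and 0.131% for EA against sham EA after hepatectomy. In the other 5 comparisons, HT + SEA against HT in the PVN and all 4 in the CEA, no miRNA was called. At an unadjusted p under 0.05 the PVN gave 15.0% of all miRNAs for HT against NC, 13.5% for HT + EA against HT, 9.58% for HT + SEA against HT and 4.33% for HT + EA against HT + SEA, and the CEA gave 2.89%, 4.86%, 3.67% and 0.787% in the same order. The comparisons within a nucleus share libraries, so their values are not independent of each other.

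For the abundant arms the intervals were narrower than for the other arms in the same nucleus. For miR-126a-3p and miR-143-3p, the 95% intervals of all 16 differences between treatments lay within -0.42 and 0.36 on the log2 scale. In the PVN the mean miR-126a-3p level was 20505 ± 2036 CPM in NC, 18617 ± 1675 CPM in HT, 18092 ± 895 CPM in HT + EA and 19418 ± 1107 CPM in HT + SEA (SD, n = 3 each), and the groups overlapped in each of the 4 comparisons. In the CEA it was 24493 ± 1023, 25978 ± 2927, 24112 ± 2177 and 23849 ± 274 CPM in the same order. miR-143-3p averaged 11038 ± 685, 10390 ± 181, 10101 ± 843 and 9996 ± 510 CPM in the PVN and 13261 ± 240, 12720 ± 1937, 12405 ± 1532 and 11967 ± 874 CPM in the CEA. The 95% interval of each tested difference between these means included 0.

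The pair of unadjusted results both came from HT against NC in the PVN and were both mural. miR-143-5p was 28.0, 29.7 and 39.2 CPM in the NC libraries and 27.4, 25.6 and 19.5 CPM in the HT libraries, in replicate order. The groups did not overlap, though the lowest NC library was less than 1 CPM above the highest HT library. Groups without overlap were found for 15.7% of all miRNAs in that comparison. HT minus NC was -0.41 on the log2 scale (SE 0.157, edgeR adjusted p = 0.213), and leaving out each library in turn gave -0.50 to -0.27. The -0.27 was without NC replicate 3, and without HT replicate 3, which had the lowest level and stands apart from the other PVN libraries, it was -0.29 (adjusted p = 0.490 in edgeR). In HT + EA it was 26.5, 23.5 and 27.1 CPM and in HT + SEA 27.6, 25.2 and 24.1 CPM, where all but the 27.6 lay in the range of the HT libraries.

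miR-145-5p was 214, 308 and 242 CPM in the PVN NC libraries and 301, 295 and 371 CPM in the HT libraries. HT libraries 1 and 2 lay just under NC replicate 2, so the groups overlapped. HT minus NC was 0.36 on the log2 scale (SE 0.137, edgeR adjusted p = 0.213), and leaving out each library in turn gave 0.22 to 0.51. The 0.22 (adjusted p = 0.548 in edgeR) was without HT replicate 3, which had the highest level and stands apart. Without that library neither miRNA had an unadjusted p under 0.05, while 10.9% of all miRNAs did. An unadjusted p under 0.05 was found for 15.0% of all miRNAs in that comparison, against 2 of these 6. miR-145-5p is also one of the miRNAs that the study selected on these same samples, so its direction here is not independent of that choice. Its partner miR-145-3p differed by 0.08 (SE 0.144) and its cluster neighbour miR-143-3p by -0.08 (SE 0.0859).

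Among the marker lists of other cells, 1 miRNA was called in the same comparison, miR-34c-5p, which multiciliated cells make (log2 difference -0.58, adjusted p = 0.0143 in edgeR). Without PVN HT replicate 3 its log2 difference was -0.56 (adjusted p = 0.0297 in edgeR). miR-34c-5p is 1 of 9 choroid plexus and epithelial miRNAs, of which 5 had an unadjusted p under 0.05, with a median log2 difference of -0.58 and a sum of 2852 to 3251 CPM in HT and 3845 to 4430 CPM in NC. Those sums were mostly miR-34c-5p, at 2303 CPM in HT and 3464 CPM in NC on average. None of 4 red cell miRNAs was called (2 under an unadjusted 0.05, median -0.20), and they summed to 223 to 234 CPM in HT and 266 to 344 CPM in NC. None of 4 striated muscle miRNAs was called (2 under an unadjusted 0.05, median -0.49), and they summed to 20.3 to 31.5 CPM in HT and 44.2 to 112 CPM in NC. The sums of these 3 lists did not overlap between the groups. Sums overlapped, with no member called, for 6 fibroblast and meningeal miRNAs (2 under an unadjusted 0.05, median -0.24), 5 myeloid miRNAs (1, -0.10), 3 oligodendrocyte miRNAs (1, 0.09), 4 neuronal miRNAs (2, 0.24) and 13 further miRNAs often linked to vessels (2, 0.05). The myeloid miRNA was miR-223-3p, at 22.0 to 89.3 CPM in NC and 1.03 to 1.41 CPM in HT (-5.63, adjusted p = 0.0563 in edgeR). Without PVN HT replicate 3 its log2 difference was -5.75 (adjusted p = 0.119 in edgeR). The part of these lists in the miR-143-5p and miR-145-5p values was not tested.

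Under EA and sham EA the PVN levels of miR-145-5p were 306, 357 and 362 CPM in HT + EA and 268, 281 and 273 CPM in HT + SEA. All 3 HT + EA libraries were above all 3 HT + SEA libraries, which 14.3% of all miRNAs did in either direction. HT + EA minus HT + SEA was 0.28 on the log2 scale (SE 0.137, edgeR adjusted p = 0.954). Its unadjusted p missed 0.05 there and passed it in 7 of 8 alternative fits, DESeq2 and the fit of only the 6 libraries included, with adjusted p-values of 0.214 to 0.999 over the 8. Against HT, the difference was 0.08 for HT + EA and -0.20 for HT + SEA, the latter without overlap (268 to 281 against 295 to 371 CPM, as in 14.3% of all miRNAs), and neither passed an unadjusted p of 0.05. Without PVN HT replicate 3 these differences were 0.21 and -0.11. Of the marker lists, the red cell miRNA miR-144-3p was called lower in HT + EA than in HT (log2 difference -0.99) and than in HT + SEA (-0.90), at 6.72, 13.4 and 12.3 CPM on average. Without PVN HT replicate 3, miR-144-3p differed by -1.05 between HT + EA and HT (adjusted p = 0.00746 in edgeR). The red cell list as a whole did not follow it: its median log2 difference for HT + EA against HT was 0.17, its sum was 223 to 312 CPM in HT + EA, 223 to 234 CPM in HT and 244 to 280 CPM in HT + SEA, and miR-486 was at 99.4 CPM in HT + EA and 75.5 CPM in HT (adjusted p = 0.293 in edgeR). The 13 further vessel-linked miRNAs summed to 10298 to 10877 CPM in HT + EA and 10070 to 11156 CPM in HT + SEA, above the 9253 to 9857 CPM in HT. Their median log2 differences were 0.04 and 0.05, and none was called. Choroid plexus and epithelial sums were 3327 to 3478 CPM in HT + SEA, above the 2852 to 3251 CPM in HT (median 0.41, none called), and overlapped HT in HT + EA. Sums of the remaining lists overlapped HT. The part of these miRNAs and lists in the miR-145-5p values was not tested.

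In the CEA the widest difference was that of miR-126a-5p in HT against NC. Its levels were 332, 417 and 385 CPM in NC and 165, 334 and 390 CPM in HT, and the low value was that of CEA HT replicate 1. The log2 difference was -0.32 (SE 0.227, adjusted p = 0.983 in edgeR), and leaving out each library in turn gave -0.57 to -0.07. The -0.07 was without CEA HT replicate 1. The other 5 miRNAs differed there by -0.24 to 0.12 on the log2 scale. The -0.24 was that of miR-145-3p (SE 0.155, edgeR adjusted p = 0.983), which lay without overlap at 30.4 to 37.7 CPM in HT and 37.9 to 46.1 CPM in NC, as did 7.87% of all miRNAs in either direction.

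**Figure D3:**
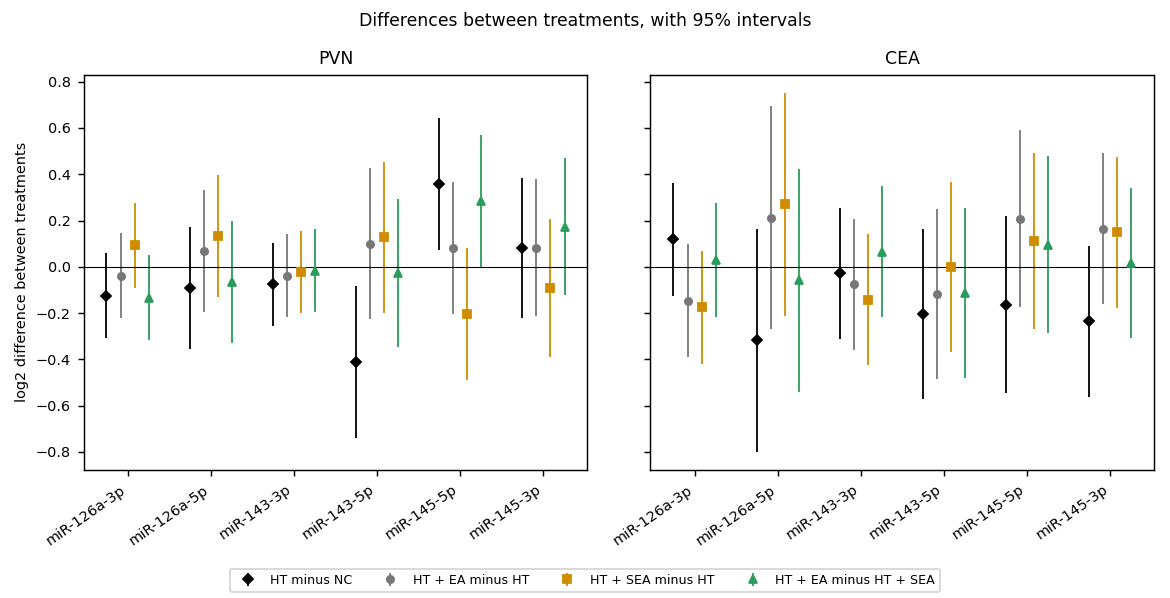
The log2 difference between treatments of each of the 6 miRNAs in the PVN (left) and the CEA (right) for 4 comparisons, with 95% intervals as vertical lines. Only the PVN intervals of miR-143-5p and miR-145-5p for HT minus NC leave out 0, at -0.41 and 0.36.

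Whether a treatment acted differently in the 2 nuclei was tested as an interaction over the 24 libraries. None of the 6 was called for HT against NC or for HT + EA against HT in edgeR (0 calls, with 1 and 0 at an unadjusted p under 0.05, against 5.46% and 2.34% of all miRNAs), and DESeq2 called 0 too. The 1 was miR-145-5p, whose HT minus NC difference was 0.54 higher in the PVN than in the CEA on the log2 scale (SE 0.237, edgeR adjusted p = 0.748). It was 0.37 without CEA HT replicate 1 and 0.42 without PVN HT replicate 3.

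Ratios of counts within a library need no scaling and were compared next. The 3p arm of miR-126a exceeded its 5p arm by a median of 72.2 times in the PVN and 66.7 times in the CEA, and the 3p arm of miR-143 exceeded its 5p arm by 394 and 325 times. In miR-145 the 5p arm was the more abundant, by 8.85 and 8.87 times. Between hairpins, miR-143-3p exceeded miR-145-5p by 35.3 and 34.2 times although both come from Carmn, and miR-126a-3p exceeded miR-143-3p by 1.85 and 1.94 times and miR-145-5p by 67.6 and 69.9 times. Ligation of small RNA adapters depends on the sequence, so such a ratio is read between libraries and not as a ratio of molecules.

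None of the 6 ratios differed between the nuclei in an exact permutation test within treatments, two-sided, adjusted over the 6 ratios. The lowest p was 0.0770 (adjusted p = 0.305 in the exact permutation test), for miR-126a-3p to miR-143-3p, which had a log2 difference of -0.09, with means of 0.88 in the PVN and 0.97 in the CEA. For the arms of that ratio, the levels themselves had log2 differences of -0.36 and -0.28. Without CEA HT replicate 1 the miR-143 arm ratio was higher in the PVN by 0.23 on the log2 scale (p = 0.0175, adjusted p = 0.105, exact permutation test) and the miR-126a arm ratio by 0.14 (p = 0.0406, adjusted p = 0.122), and neither passed the adjusted threshold.

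CEA HT replicate 1 had 4 of the 6 ratios above those of the other 23 libraries. Its miR-126a 3p to 5p ratio was 174, against 58.3 to 86.2 elsewhere, its miR-143 3p to 5p ratio was 574 against 267 to 525, its miR-143-3p to miR-145-5p ratio was 65.7 against 27.7 to 50.5, and its miR-126a-3p to miR-145-5p ratio was 125.8 against 47.9 to 91.7. Its miR-145 5p to 3p ratio, 7.47, was within the range of the others, 6.66 to 12.5. In TMM-scaled CPM the library had the highest miR-126a-3p and miR-143-3p levels of the CEA and the lowest miR-126a-5p, miR-143-5p, miR-145-5p and miR-145-3p levels. As shares of its counts, miR-126a-3p was 2.29% and miR-143-3p 1.20%, within the 2.29% to 2.63% and 1.09% to 1.36% of the other CEA libraries. Across 87 hairpins with both arms measured, its arm ratios deviated from the group mean by a median of -0.003 on the log2 scale, but with an interquartile range of 0.67 against 0.14 to 0.61 in the others. Arm ratios of 11 hairpins deviated by more than 1, against 0 to 4 in other libraries (the 0.61 and the 4 were those of PVN HT replicate 3), and only 1 hairpin deviated further upward than miR-126a.

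**Figure D4:**
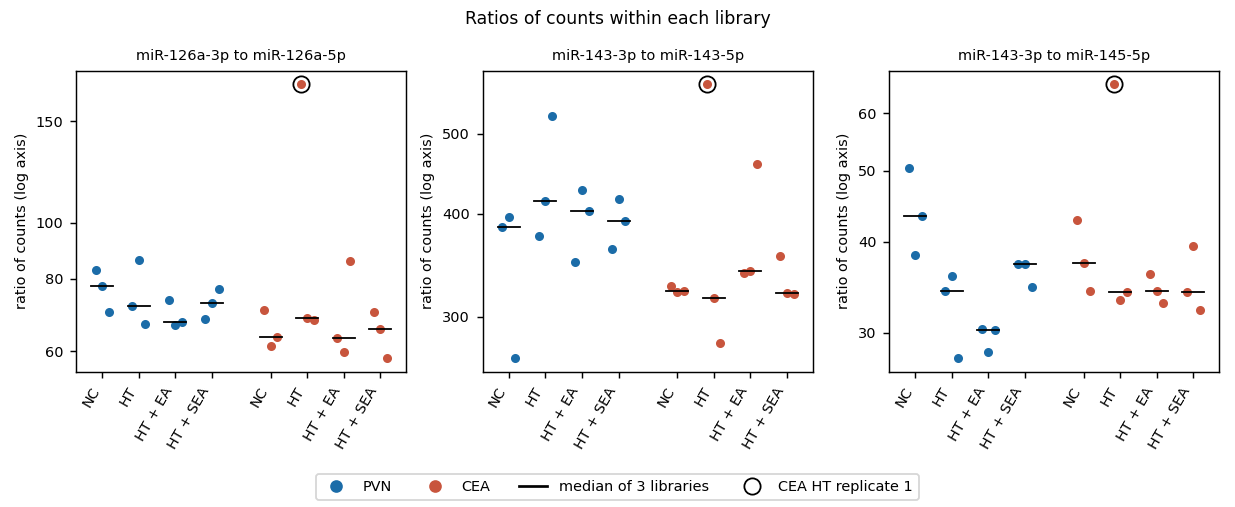
Ratio of counts within each library (log axes) of miR-126a-3p to miR-126a-5p, miR-143-3p to miR-143-5p and miR-143-3p to miR-145-5p, PVN in blue and CEA in red, with a bar at the median of 3 libraries. CEA HT replicate 1, circled, lies highest in each panel, at 174, 574 and 65.7.

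Between treatments, 48 comparisons of ratios were made, 3 libraries against 3, in which an exact permutation test cannot give a p under 0.1. In 3 the groups did not overlap, all in the PVN, all with miR-145-5p in the ratio, and each with an adjusted p of 0.96 in the exact permutation test. The miR-143-3p to miR-145-5p ratio was 27.7 to 35.9 in HT and 38.3 to 50.5 in NC, and 28.3 to 30.3 in HT + EA and 34.7 to 37.3 in HT + SEA. The miR-126a-3p to miR-145-5p ratio was 47.9 to 61.7 in HT + EA and 66.7 to 73.1 in HT + SEA. The other 45 comparisons overlapped.

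The last question was whether the miRNAs rose and fell together between libraries of a group. Deviations of log2 CPM from the group mean were correlated for 6 pairs, with exact permutation tests within treatments, two-sided, adjusted over the 6 pairs. None passed, and the lowest adjusted p was 0.472. In the PVN, miR-126a-3p and miR-143-3p had a Pearson r of 0.18 (p = 0.605) and a Spearman rho of 0.27 (p = 0.438, exact permutation tests, n = 12), with r = 0.10 without the 2 libraries farthest from the median. In the CEA, the same pair had an r of 0.73 (p = 0.157) and a rho of 0.55 (p = 0.198, exact permutation tests, n = 12), with r = 0.59 without the 2 farthest libraries. Scaled by library totals, r was 0.35.

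The cluster partners miR-143-3p and miR-145-5p had an r of 0.56 (p = 0.117) and a rho of 0.54 (p = 0.147) in the PVN, with r = 0.47 without the 2 farthest libraries (exact permutation tests, n = 12). In the CEA they had an r of -0.04 (p = 0.909) and a rho of 0.03 (p = 0.958), with r = 0.33 without the 2 farthest libraries (exact permutation tests, n = 12). That CEA value rested on HT replicate 1, without which r was 0.84 (p = 0.0463, adjusted p = 0.278, exact permutation test). miR-126a-3p and miR-145-5p had an r of 0.10 (p = 0.823) and a rho of 0.03 (p = 0.938) in the PVN, with r = -0.06 without the 2 farthest libraries (exact permutation tests, n = 12). In the CEA they had an r of -0.10 (p = 0.884) and a rho of 0.14 (p = 0.775), with r = -0.15 without the 2 farthest libraries (exact permutation tests, n = 12), and r = 0.49 without CEA HT replicate 1.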

How the data were processed

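Small RNA libraries were made from total RNA with a NEBNext kit. The authors deposited raw counts of reads per miRNA for 1098 miRNAs in 24 libraries. The labels name HISAT2 and featureCounts for the whole study without versions, and how miRNA reads were counted, or shared between similar miRNAs, is not given in the sources used here. The labels list a human genome build and the study's methods a rat one, so the build behind the counts is unsure, and the coordinates given are RefSeq's, matched by miRNA name. A further 24 columns, the authors' CPM of the same libraries, were not used.

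Sample titles gave each library its nucleus and treatment. Counts were fitted in R 4.3.3 with edgeR 4.0.16 and limma 3.58.1 (TMM scaling, glmQLFit with robust estimation, glmQLFTest). miRNAs needed 10 or more counts in the libraries fitted: 898 for PVN against CEA and interactions (24 libraries, 8 group means) and 762 within each nucleus (12 libraries). Calls are at a Benjamini-Hochberg adjusted p under 0.05. The SE is the log2 difference divided by the square root of F, and intervals are at 95%. The fit was tested on simulated data. Ratios, with 0.5 added to counts, and correlations were tested by exact permutation in scipy 1.17.1 (Python 3.11.15, numpy 2.4.6, pandas 2.3.3, matplotlib 3.10.9). Alternatives were DESeq2 1.42.0, other scalings and filters, no robust estimation, only the 6 libraries compared, an additive treatment term, the replicate number as a block, and each library left out in turn. The comparisons within a treatment and those without CEA HT replicate 1 within HT were added after the data were seen. So were the values without PVN HT replicate 3 within HT and between HT + EA or HT + SEA and HT. Values of list miRNAs without that library were added then too.

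Named miRNAs are the 6, members of marker lists called in a comparison described or introduced to define a list, and the 5 miRNAs most alike to 3 of the 6. miR-126b was named for its position, and miR-223-3p, miR-21-5p and the values of miR-486 were chosen after they were seen. The 6 miRNAs and the lists were chosen with earlier results of these data known. Totals of 6584345 to 14913564 counts make counting error small beside the spread of replicates, whose pairwise chi-square per degree of freedom was 54.0 to 1192, which sets libraries of a group against counting error only. Floors cover counting error only. The sources do not tie the libraries of a group to separate rats one by one, so p-values measure the spread between these libraries.

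Replicate numbers recur in all groups. Deviations from the group means were correlated between same-numbered libraries. The r was over 0.1 in every pair for HT + EA against HT in the PVN (r = 0.13 to 0.32) and HT against NC in the CEA (r = 0.27 to 0.51). In the other comparisons it was not over 0.1 in every pair. Neither the labels nor these few values establish a pairing, so the main fits used no block and the block was an alternative.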

Additional observations from a re-analysis of the deposited data

How the results depend on the processing

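Over 34 results and 677 values under the alternatives, 652 values kept their direction and their side of the threshold. For PVN against CEA, 4 miRNAs were called with library totals and 6 with DESeq2, with RLE factors, with filterByExpr and with the replicate block, and 5 to 6 with each library left out in turn. miR-145-5p decided most of this, with an adjusted p of 0.0401 in DESeq2, 0.0452 with RLE, 0.0111 with filterByExpr and 0.0348 with the replicate block. Library totals shifted the median of all miRNAs from -0.01 to 0.06 and filterByExpr to -0.08 on the log2 scale. Between treatments and in the interactions, 0 of the 6 were called under each alternative run, the replicate block included. This held also where every same-numbered pair was correlated over 0.1. Over all miRNAs, in the PVN edgeR called 2 and DESeq2 called 20 between HT and NC, and 3 and 18 between HT + EA and HT. For PVN against CEA the correlation of same-numbered libraries ran from -0.11 to 0.65 over 12 pairs, with a mean of 0.20. Whether those libraries share rats cannot be told from such values.

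With each library left out in turn, the log2 difference of the miR-126a arm ratio between nuclei ranged from -0.0336 to 0.136, with its sign turned in 4 of 24 fits, and that of the miR-145 arm ratio from -0.0112 to 0.0711, turned in 1. The correlation of miR-126a-3p with miR-145-5p ranged from -0.41 to 0.34 in PVN libraries and from -0.45 to 0.49 in CEA libraries, and that of miR-143-3p with miR-145-5p in the CEA from -0.33 to 0.84. With library totals these CEA correlations were 0.51 and 0.34, and that of miR-126a-3p with miR-143-3p was 0.35 in place of 0.73. The cause was not tested. With 3 libraries a group, the widest SE of a treatment difference, 0.227, was larger than most of the differences.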

Other observations

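Among 359 miRNAs with a mean of at least 10 CPM, those whose deviations from the 8 group means were most like those of miR-126a-3p over the 24 libraries were miR-24-2-5p (r = 0.76), miR-99a-5p (0.76), miR-128-3p (0.73), miR-151-3p (0.67) and miR-384-5p (0.63). Its own partner arm miR-126a-5p had an r of -0.14, and 0.39 without CEA HT replicate 1. For miR-143-3p they were miR-99a-5p (r = 0.66), miR-425-5p (0.66), miR-146a-5p (0.65), miR-30e-3p (0.64) and miR-190b-5p (0.64). Without CEA HT replicate 1 these were 0.51, 0.36, 0.73, 0.41 and 0.57 in the same order, so miR-425-5p and miR-30e-3p rested on that library. Its cluster partner miR-145-5p had an r of 0.13, and 0.71 without CEA HT replicate 1. For miR-145-5p they were miR-34a-5p (r = 0.80), miR-3570 and miR-181a-1-3p (0.78 each, with nearly identical counts), miR-879-5p (0.73) and miR-3068-5p (0.72). Without that library the 5 for miR-126a-3p were 0.61 to 0.75 and the 5 for miR-145-5p 0.55 to 0.75. These correlations are descriptions, since all points share the library, its depth and its scaling.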
